A study of Rattus norvegicus with 6 samples.

Results

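The genes described here are the receptors, granule proteins and regulators of natural killer (NK) cells and other cytotoxic lymphocytes, measured in total lung of Sprague-Dawley rats. The Ahr-KO group (3 libraries) came from rats that lack the aryl hydrocarbon receptor gene Ahr by their label, and the WT group (3 libraries) from wild-type rats. Both groups carry the Sugen-Hypoxia (SuHx) label, in which a VEGF receptor inhibitor is combined with low oxygen as a rat model of pulmonary arterial hypertension, and both carry the label of day 56. The column names of all 6 libraries also carry the letters NO, which the labels do not explain. The sources used here do not give age, sex, the kind of Ahr edit or whether animals were pooled. Each library gave 1 normalised value per gene symbol by bulk RNA-seq. The members are all rows whose symbol begins with Klr, Ly49 or Gzm, together with Prf1, Nkg7, Ncr1, Ncr3, Tbx21, Eomes, Hcst, Tyrobp, Cd226, Cd244, Crtam, Slamf7, Ctsw and Ifng. There were 50 such rows among the 19828 of the table. Of these, 44 reached a value of at least 1 in 3 or more of the 6 libraries and were tested.

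NK cells and cytotoxic T cells kill target cells by releasing granules that hold perforin, which opens the target's membrane, and granzymes, proteases that enter and start cell death. Whether an NK cell fires depends on the balance of activating and inhibitory surface receptors. In rats many of these are C-type lectin-like proteins encoded side by side in the NK gene complex, which includes the Ly49, NKR-P1 and CD94/NKG2 families. The T-box factors T-bet (Tbx21) and Eomes drive the cytotoxic programme in both cell types. The granule genes and these factors thus mark a function shared by NK cells and CD8 T cells rather than a single cell type.

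The deposited values per library added up to 18.9 to 19.3 M for Ahr-KO and 17.8 to 18.0 M for WT, and rested on an estimated 14.2 to 23.6 M reads for Ahr-KO and 12.9 to 21.9 M for WT. A single read was worth 0.806 to 1.40, and library 2 was the shallowest of each group. Ahr itself was read at 2399.3, 3923.1 and 3575.4 in the Ahr-KO libraries, against 2940.0, 2860.4 and 3395.0 in the WT libraries (log2 fold change 0.08 ± 0.18, limma adjusted p = 0.81), which does not check the genotype where an edit leaves other exons in place. Cyp1a1, a P450 gene that the receptor induces, stood at 10.5, 0.826 and 1.36 in the Ahr-KO libraries, against 27085.4, 23512.2 and 37693.8 in the WT libraries. The epithelial markers of lung were high in every library, with Sftpb, a surfactant protein gene, at 102877.0 to 118554.0 in Ahr-KO and 71079.9 to 81867.2 in WT. Where 3 values are given for a group they are libraries 0, 1 and 2 in that order. Differences are log2(value + 1) in Ahr-KO minus that in WT, with the SE after the ± sign, and folds are the same differences on a linear scale.

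Of the 44 tested members, 12 were lower in Ahr-KO and 0 were higher (limma with a mean-variance trend, Benjamini-Hochberg adjusted p under 0.05 over all 15386 genes tested). That is 27.3% of the members lower, where 6.26% of all genes tested were lower and 4.5% were higher. At an unadjusted p under 0.05, 27 of the 44 were counted, where 27.9% of all genes tested were. The members that fell were Prf1, Nkg7, Gzma, Gzmb, Gzmk, Gzmm, Klrk1, Ncr1, Tyrobp, Klri1, Klrb1a and Eomes. The median log2 fold change was -1.09 over the tested members, beside 0.01 over all genes tested. All 3 Ahr-KO values lay below all 3 WT values for 28 members (63.6%, against 17.4% of all genes tested), and in 0 members did all 3 lie above. Klra2 and Ifng passed the filter through the WT libraries alone and so had to be lower. Without them, 12 of 42 fell, 25 of 42 had an unadjusted p under 0.05, 26 of 42 did not overlap and the median was -1.04. In bulk tissue, fewer cells of a type and less RNA per cell cannot be told apart.

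The size of the count depended on which libraries entered. Leaving out Ahr-KO library 1, Ahr-KO library 2 or WT library 0 left 4, 3 and 6 members past the threshold, all lower and all among the 12. The other fits without 1 library called 9 or 10. Only Prf1, Klrk1 and Nkg7 stayed past the threshold in all 6 of those fits. Without both libraries numbered 2, with 2 libraries a group, 2 members were called, and Prf1 and Klrk1 had an adjusted p of 0.059 each.

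**Figure D1:**
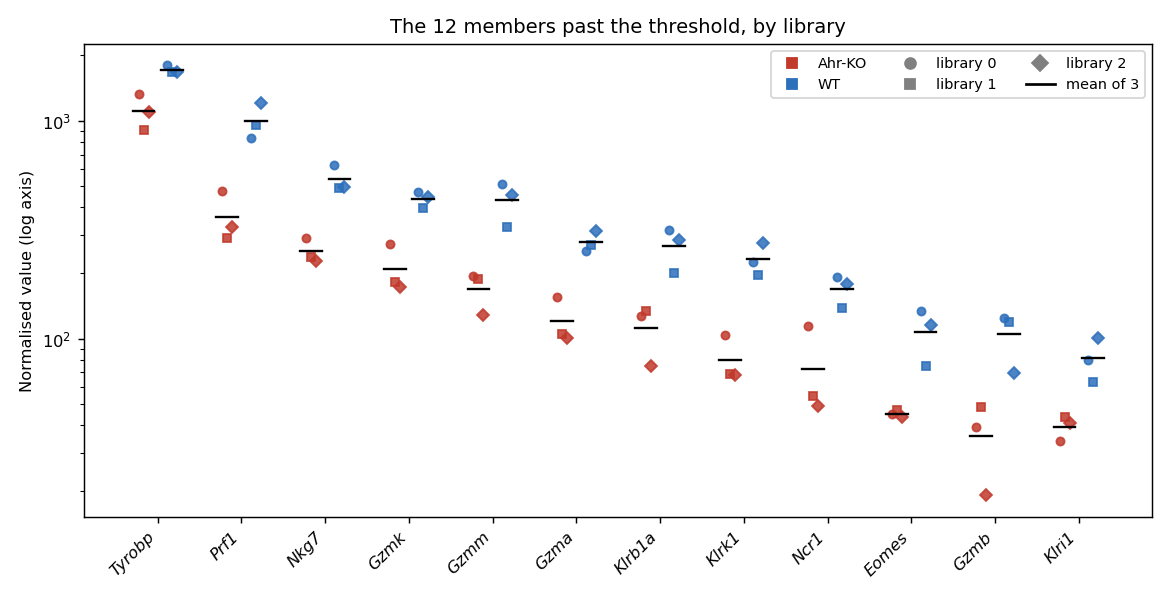
Normalised value (log axis) of the 12 members that fell, with 1 symbol per library (circle, library 0; square, library 1; diamond, library 2), Ahr-KO in red left of WT in blue, and a black bar at the mean of 3 libraries. For each of the 12 genes the 3 Ahr-KO libraries sit below the 3 WT libraries.

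Of the 10 tested granule genes, 6 fell. Prf1, which encodes perforin, stood at 475, 290 and 326 in the Ahr-KO libraries, against 834, 954 and 1208.6 in the WT libraries. It averaged 364 ± 97.9 in Ahr-KO and 999 ± 191 in WT (SD, n = 3 each), and the log2 difference was -1.47 ± 0.21 (95% interval -1.95 to -0.99, adjusted p = 0.0081). The groups did not overlap, and the highest Ahr-KO library was library 0. Nkg7, a membrane protein of the cytotoxic granule, was at 290, 236 and 228 in the Ahr-KO libraries, against 629, 491 and 498 in the WT libraries. Its values were tight within each group, the difference was -1.10 ± 0.15 on the log2 scale (adjusted p = 0.0079), and the call held in every alternative fit that was run.

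Granzymes A, K and M were each read in more than 70 estimated reads per library. Gzma, a trypsin-like granzyme, stood at 156, 105 and 101 in the Ahr-KO libraries, against 253, 269 and 313 in the WT libraries, and was 2.33-fold lower (adjusted p = 0.013). Gzmk, a related tryptase carried mainly by memory-type CD8 T cells, stood at 271, 182 and 172 in the Ahr-KO libraries, against 473, 397 and 445 in the WT libraries, and was 2.14-fold lower (adjusted p = 0.014). Gzmm, which cuts after methionine and is abundant in NK cells, stood at 193, 188 and 128 in the Ahr-KO libraries, against 515, 327 and 456 in the WT libraries, and was 2.53-fold lower (adjusted p = 0.013). None of the 3 overlapped between groups. Gzmb, the granzyme best known for starting apoptosis, stood at 39.5, 48.8 and 19.1 in the Ahr-KO libraries, against 125, 119 and 69.9 in the WT libraries, a log2 fold change of -1.58 ± 0.39 (adjusted p = 0.041). Ahr-KO library 2 was the lowest of its group and WT library 2 of its own, and the groups did not overlap. Gzma and Gzmk lost their calls without Ahr-KO library 1 or 2 (highest adjusted p = 0.06 and 0.065), Gzmm without Ahr-KO library 2 (0.052) and Gzmb without any 1 library other than WT library 2 (0.12). After quantile normalisation Gzmb had an adjusted p of 0.076, without the trend 0.079, and with no filter 0.05.

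The other granule genes did not pass. Ctsw, which encodes cathepsin W of cytotoxic lymphocytes, was at 66.1, 47.9 and 70.9 in the Ahr-KO libraries, against 224, 107 and 105 in the WT libraries (log2 -1.15 ± 0.33, adjusted p = 0.063). WT library 0 stood far above the other WT libraries, while the groups did not overlap, and the gene passed with equal library totals alone. Gzmbl3, a granzyme B-like gene, was at 14.5, 13.2 and 12.3 in the Ahr-KO libraries, against 18, 29.6 and 46.2 in the WT libraries (adjusted p = 0.11). The row of Gzmbl2 and LOC102553861 ran from 1.61 to 17.7 in Ahr-KO and from 1.64 to 97.9 in WT, so a single WT library held most of its signal. Gzmbl1 rested on 3 estimated reads or fewer in each library. Gzmc, Gzmf and Gzmn were listed at 0 in all 6 libraries. The granzyme B-like genes are close relatives of Gzmb, and the sources used here do not say how shared reads were counted, so their single levels are uncertain.

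Promoters of 6 members that fell are printed to show the stretch of DNA in front of genes that moved together. Klrk1, Nkg7 and Prf1 were past the threshold in each fit without 1 library, and Gzma, Gzmb and Klrb1a stand for the granzymes and the NKR-P1 family. Each runs 5′ to 3′ on the gene's own strand, from 250 bases before the start to 50 bases after it, as given by RefSeq on GRCr8, a build later than the rn6 named for the deposited values. Capitals mark a match on either strand to TCACAC or AGGTGT, overlapping pieces of the T-box site that T-bet and Eomes bind, or to GCGTG, the core that the AHR complex binds.
Klrk1, chr4:164778333-164778632 (GRCr8, minus strand): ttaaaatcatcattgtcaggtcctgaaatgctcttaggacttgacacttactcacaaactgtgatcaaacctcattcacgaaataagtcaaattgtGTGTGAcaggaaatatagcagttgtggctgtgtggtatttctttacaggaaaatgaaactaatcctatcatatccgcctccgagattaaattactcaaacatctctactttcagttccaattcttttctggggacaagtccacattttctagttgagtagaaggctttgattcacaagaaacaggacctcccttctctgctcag
Nkg7, chr1:102981247-102981546 (GRCr8, plus strand): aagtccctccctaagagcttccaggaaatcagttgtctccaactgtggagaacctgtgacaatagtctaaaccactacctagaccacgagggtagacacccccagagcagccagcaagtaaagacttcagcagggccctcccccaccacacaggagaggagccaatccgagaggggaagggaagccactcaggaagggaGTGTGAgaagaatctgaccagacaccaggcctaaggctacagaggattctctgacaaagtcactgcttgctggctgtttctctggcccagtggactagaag
Prf1, chr20:29788790-29789089 (GRCr8, plus strand): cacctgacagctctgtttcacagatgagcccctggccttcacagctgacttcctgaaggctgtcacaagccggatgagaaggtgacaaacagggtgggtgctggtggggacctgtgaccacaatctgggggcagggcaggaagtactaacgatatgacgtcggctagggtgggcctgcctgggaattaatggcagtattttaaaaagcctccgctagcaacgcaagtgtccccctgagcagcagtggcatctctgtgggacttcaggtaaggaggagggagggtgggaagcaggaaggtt
Gzma, chr2:46485647-46485946 (GRCr8, minus strand): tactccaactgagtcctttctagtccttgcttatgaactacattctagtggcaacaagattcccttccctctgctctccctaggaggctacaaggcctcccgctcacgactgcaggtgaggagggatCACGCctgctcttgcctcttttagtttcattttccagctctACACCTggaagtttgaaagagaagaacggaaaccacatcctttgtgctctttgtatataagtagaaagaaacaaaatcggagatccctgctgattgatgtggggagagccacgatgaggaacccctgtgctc
Gzmb, chr15:34462420-34462719 (GRCr8, minus strand): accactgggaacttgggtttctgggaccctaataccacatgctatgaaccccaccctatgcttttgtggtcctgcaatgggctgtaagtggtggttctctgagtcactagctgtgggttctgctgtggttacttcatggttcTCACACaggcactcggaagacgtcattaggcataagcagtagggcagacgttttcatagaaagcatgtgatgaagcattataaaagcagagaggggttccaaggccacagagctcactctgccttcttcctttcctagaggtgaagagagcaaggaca
Klrb1a, chr4:163590098-163590397 (GRCr8, minus strand): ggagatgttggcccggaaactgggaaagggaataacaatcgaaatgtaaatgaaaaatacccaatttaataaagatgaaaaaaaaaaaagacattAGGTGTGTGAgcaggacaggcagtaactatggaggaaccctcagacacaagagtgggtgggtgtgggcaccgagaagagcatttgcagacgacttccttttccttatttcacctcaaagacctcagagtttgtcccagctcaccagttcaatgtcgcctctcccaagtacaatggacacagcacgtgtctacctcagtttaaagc

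In these windows Klrk1, Nkg7 and Gzmb each held 1 match to TCACAC, at positions -154, -51 and -108 from the start. Klrb1a held AGGTGT at -155 and a match to TCACAC at -151, which share bases. Gzma held AGGTGT at -82 and GCGTG at -123, and Prf1 held none of the 3. Positions give the left end of a match. RefSeq promoters were matched for 35 of the 44 members that are single genes, 10 of them among those that fell. One or both T-box pieces were present in 8 of those 10, in 4 of the other 25 members, and in 24.2% of all 33469 promoters in the table. The other 25 include Gzmc, Gzmf, Klrb1, Klrh1 and Ly49i7, which were not tested for a change, and Gzmf and Klrb1 are among the 4. They are thus not a set of genes shown to be unchanged. GCGTG was present in 1 of the 10, in 3 of the 25, and in 29.7% of all promoters. These are matches of letters and not binding sites, and no test was made.

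Among activating receptors and their adaptors, 3 of 9 fell and 0 rose, with a median log2 of -0.74. Klrk1 encodes NKG2D, the receptor for stress-induced ligands, and stood at 104, 68.6 and 68.2 in the Ahr-KO libraries, against 225, 197 and 274 in the WT libraries. Its log2 difference was -1.54 ± 0.23 (95% interval -2.06 to -1.01, adjusted p = 0.0091), and the lowest WT library was above the highest Ahr-KO library. Hcst encodes DAP10, the adaptor of NKG2D, and was at 106, 66.9 and 53.2 in the Ahr-KO libraries, against 120, 96.9 and 71.3 in the WT libraries. Its groups overlapped, and the log2 difference of -0.38 ± 0.31 had an interval that ran over -1.08 to 0.33 (adjusted p = 0.47). The difference between Klrk1 and Hcst was not tested.

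Ncr1, which encodes NKp46, the receptor that marks NK cells most closely in mammals, was at 114, 54.5 and 49.1 in the Ahr-KO libraries, against 192, 138 and 178 in the WT libraries. Ahr-KO library 0 was about as high as the other Ahr-KO libraries together, and stayed below the lowest WT library. The log2 fold change was -1.30 ± 0.33 (adjusted p = 0.043). This call held without Ahr-KO library 0 and was lost without any 1 of the other 5 libraries (highest adjusted p = 0.15). It was also lost after quantile normalisation (0.067), with no filter (0.052) and without the trend (0.084). Ncr3, which encodes NKp30, did not pass, at 29.8, 27.3 and 13.6 in the Ahr-KO libraries, against 31, 31.2 and 29.4 in the WT libraries (adjusted p = 0.46). Its 3 WT values lay within 29.4 to 31.2, and Ahr-KO libraries 0 and 1 were close to them.

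Tyrobp encodes DAP12, the adaptor of activating Ly49 receptors, which macrophages and other myeloid cells also make. It was at 1327.4, 906 and 1091.3 in the Ahr-KO libraries, against 1793.4, 1665.5 and 1671.6 in the WT libraries, a 1.56-fold fall (log2 -0.64 ± 0.14, adjusted p = 0.027). The call was lost without Ahr-KO library 1 or 2 or WT library 0 or 1 (highest adjusted p = 0.10), and without the trend (0.074). The complement genes C1qa, C1qb and C1qc, which lung macrophages make, fell in the same libraries by 3.76-fold, 3.64-fold and 3.15-fold. Itgax of the same macrophage list also fell, 2.13-fold (limma adjusted p = 0.034). Cd68, Adgre1 and Itgam were lower without overlap but did not pass (log2 -0.85, -0.81 and -0.97, adjusted p = 0.073, 0.081 and 0.084). Csf1r did not pass either. It was at 5505.4, 5590.0 and 6089.6 in the Ahr-KO libraries, against 5022.2, 4907.8 and 5035.9 in the WT libraries (log2 0.20 ± 0.08, adjusted p = 0.16), with every Ahr-KO value above every WT value. Mrc1, Cd163 and Cd14 had log2 differences of -0.50 ± 0.41, 0.88 ± 0.75 and -0.01 ± 0.11 with overlapping groups. The part of myeloid cells in the Tyrobp value was not tested.

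None of the 4 remaining activating receptors passed. Cd226, the receptor DNAM-1, was at 25, 24 and 31.4 in the Ahr-KO libraries, against 45, 37 and 69.9 in the WT libraries, and Cd244, the receptor 2B4 for CD48, at 66.9, 50.4 and 62.8 in the Ahr-KO libraries, against 77, 78.8 and 166 in the WT libraries. Neither gene overlapped between groups and neither passed (adjusted p = 0.11 and 0.18). WT library 2 was the highest of all 6 for both. Slamf7, a receptor that binds itself on neighbouring cells, had a log2 fold change of -0.47 ± 0.33 with overlapping groups (adjusted p = 0.41). Crtam, a receptor of activated cytotoxic cells, ranged from 1.36 to 5.79 in Ahr-KO and 5.75 to 15.4 in WT (adjusted p = 0.19).

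**Figure D2:**
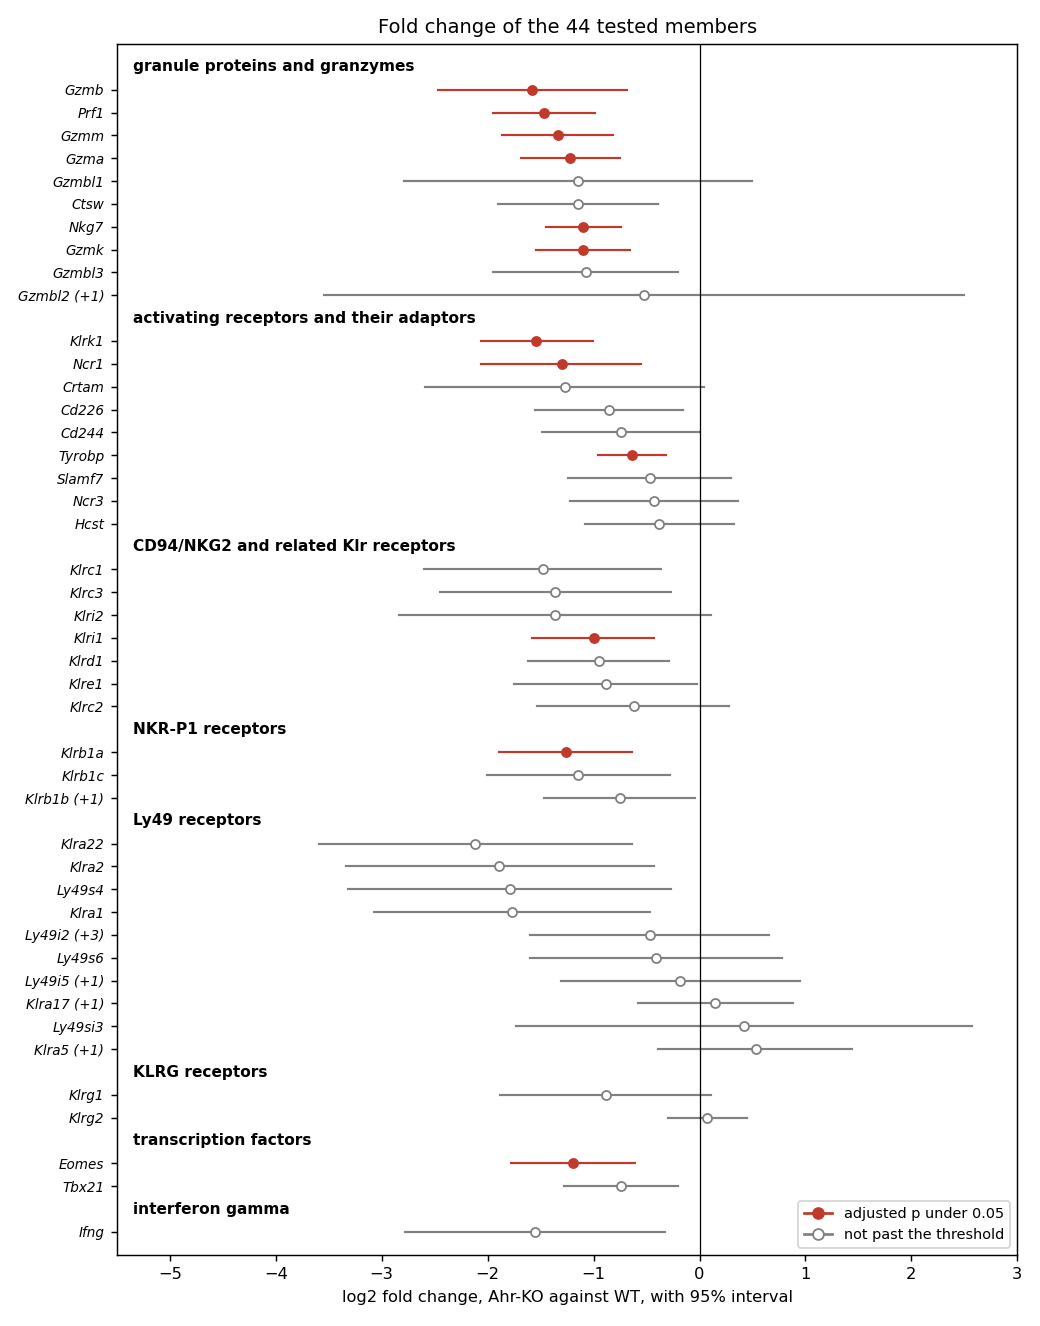
Log2 fold change of Ahr-KO against WT for the 44 tested members, grouped by role, with the 95% interval from limma as a line; filled red points passed an adjusted p of 0.05 and open grey points did not, and a number in brackets after a symbol counts the further genes named in the same row. Of the 44, 40 lie left of 0, and the 10 Ly49 rows run from -2.12 to 0.53 with none past the threshold.

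The CD94/NKG2 group and its relatives had log2 fold changes from -1.48 to -0.62 in all 7 tested members, and 1 of them passed. Klrd1 encodes CD94, the partner chain of the NKG2 receptors, and was at 122, 126 and 84.6 in the Ahr-KO libraries, against 260, 139 and 266 in the WT libraries (log2 -0.95 ± 0.29, adjusted p = 0.075). WT library 1 stood close to the Ahr-KO libraries, and the gene passed when that library was left out. The inhibitory receptor gene Klrc1 (NKG2A) was at 7.25, 4.96 and 4.09 in the Ahr-KO libraries, against 14, 9.85 and 32.2 in the WT libraries, Klrc2 at 4.03, 4.13 and 5.46 in the Ahr-KO libraries, against 10, 7.39 and 5.60 in the WT libraries and Klrc3 at 3.22, 5.79 and 4.09 in the Ahr-KO libraries, against 16, 6.57 and 18.2 in the WT libraries. All 3 were without overlap and none passed (adjusted p = 0.093, 0.35 and 0.11). They rested on 3 to 23 estimated reads per library.

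Klri1 encodes an inhibitory receptor that pairs with the Klre1 chain in rats, and it was the member of this group that fell. It was at 33.8, 43.8 and 40.9 in the Ahr-KO libraries, against 80, 63.2 and 101 in the WT libraries, a 2.01-fold difference (adjusted p = 0.041). The call was lost without any 1 library (highest adjusted p = 0.12), after quantile normalisation (0.10) and with no filter (0.052). Klri2, the activating counterpart, was at 16.9, 17.4 and 6.82 in the Ahr-KO libraries, against 67, 12.3 and 47.6 in the WT libraries, and its partner Klre1 was at 22.6, 24 and 20.5 in the Ahr-KO libraries, against 63, 23.8 and 49 in the WT libraries. For both, WT library 1 fell among the Ahr-KO values and neither passed (adjusted p = 0.21 and 0.17). Klrh1 was listed at 0 in all libraries.

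Among the NKR-P1 receptors, 1 of 3 tested rows fell. Klrb1a encodes NKR-P1A, the surface protein by which rat NK cells are usually recognised, and it was at 127, 134 and 75 in the Ahr-KO libraries, against 315, 200 and 284 in the WT libraries. The log2 difference was -1.26 ± 0.27 (95% interval -1.89 to -0.64, adjusted p = 0.027), and the groups did not overlap. The call was lost without Ahr-KO library 1 or 2 or WT library 0 (highest adjusted p = 0.082) and without the trend (0.061). Klrb1c was at 7.25, 9.09 and 9.55 in the Ahr-KO libraries, against 19, 14 and 30.8 in the WT libraries, and the row that names Klrb1b and Nkr-p1c was at 58, 32.2 and 43.7 in the Ahr-KO libraries, against 64, 60.8 and 104 in the WT libraries. Neither overlapped and neither passed (adjusted p = 0.092 and 0.16). Klrb1 was the row nearest outside the filter, at 1 estimated read in WT libraries 0 and 2 (values of 1.00 and 1.40) and listed at 0 in the other 4 libraries. Just inside it stood Ifng, which is given with the regulators, and Klra2.

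The Ly49 receptors, which read MHC class I molecules on other cells, had 0 of 10 tested rows past the threshold by limma in either direction, with 4 at an unadjusted p under 0.05 (3 of 9 without Klra2, and 27.9% of all genes tested). Summed over the 10 rows, the value was 331 to 618 in the Ahr-KO libraries and 355 to 575 in the WT libraries, so the ranges overlapped. Without the row of Klra17 and Ly49si1, the other 9 summed to 103, 55.4 and 65.5 in the Ahr-KO libraries, against 138, 140 and 123 in the WT libraries, with no overlap. Most of the sum over all 10 thus came from the row that names Klra17 and Ly49si1, at 515, 276 and 295 in the Ahr-KO libraries, against 315, 215 and 452 in the WT libraries. Its highest value was in Ahr-KO library 0, its groups overlapped, and the log2 difference was 0.15 ± 0.32 (95% interval -0.58 to 0.88, adjusted p = 0.8).

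Within the Ly49 family the rows did not share a direction. Klra22 was at 0, 0 and 2.73 in the Ahr-KO libraries, against 6, 7.39 and 4.20 in the WT libraries (adjusted p = 0.073), which is at most 9 estimated reads, too few to give a fold. Klra1 was at 32.2, 10.7 and 5.46 in the Ahr-KO libraries, against 39, 41.9 and 57.4 in the WT libraries (adjusted p = 0.085), where Ahr-KO library 0 came near the WT values, and it passed when that library was left out. Klra2 had 0 in each Ahr-KO library and 7, 1.64 and 1.40 in WT (adjusted p = 0.097). Ly49s4 was at 1.61, 0.826 and 0 in the Ahr-KO libraries, against 7, 1.64 and 8.39 in the WT libraries (adjusted p = 0.12). These 4 of the 10 tested rows did not overlap between groups (40%, against 17.4% of all genes tested), but none rested on more than 51 estimated reads in a library. Klra2 passed the filter through the WT libraries alone and so had to be lower. Without it, 3 of 9 rows (33.3%) did not overlap in this direction.

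The other Ly49 rows overlapped between groups. The row of Klra5 and Ly49s7 was at 5.64, 8.26 and 10.9 in the Ahr-KO libraries, against 6, 5.75 and 4.20 in the WT libraries (log2 0.53 ± 0.40, adjusted p = 0.43). Ly49si3 was at 16.9, 7.44 and 15 in Ahr-KO and 1, 29.6 and 15.4 in WT, and WT libraries 0 and 1 were the lowest and the highest of all 6. The row of Ly49i2, Ly49i3, Ly49i4 and Ly49s3, that of Ly49i5 and Ly49s5, and Ly49s6 had log2 fold changes of -0.47, -0.18 and -0.41. Ly49i7 was listed at 0. These genes are near-identical copies whose number differs between rat strains, 4 of the 10 tested rows name more than 1 gene, and the level of any single gene is therefore uncertain. The difference between the Ly49 count and that of the granule genes was not tested.

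In the RefSeq gene order of GRCr8, 19 of the members stand on chromosome 4 in a run from Klre1 to Klra2, with at most 4 other protein-coding genes between neighbours. Of these, 17 were tested and 2 fell, Klrk1 and Klri1, where 6.26% of all genes tested were lower. Gzma and Gzmk are neighbours on chromosome 2, and both fell. Gzmb shares a run on chromosome 15 with 5 other granzyme genes, of which Gzmbl1 and Gzmbl3 were tested and did not pass. Tyrobp and Hcst are neighbours on chromosome 1, with Tyrobp past the threshold and Hcst not. Genes of a run were thus not all called together, which does not show that they moved apart. All 7 tested members of the CD94/NKG2 group stand in the chromosome 4 run and had log2 fold changes from -1.48 to -0.62. Gzmbl1 rested on at most 3 estimated reads in a library. Whether genes of a run moved together was not tested.

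Of the receptors named KLRG, neither passed. Klrg1, an inhibitory receptor for cadherins on mature NK and T cells, was at 15.3, 6.61 and 5.46 in the Ahr-KO libraries, against 19, 13.1 and 16.8 in the WT libraries (log2 -0.88 ± 0.43, adjusted p = 0.23). Klrg2, a relative with no settled role in NK cells, was at 163, 179 and 139 in the Ahr-KO libraries, against 158, 158 and 140 in the WT libraries. Its log2 difference was 0.07 ± 0.16 (95% interval -0.30 to 0.45), and it turned slightly negative with equal library totals (-0.02), with limma-voom (-0.01) and without Ahr-KO library 1 (-0.01).

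Of the T-box factors, Eomes fell and Tbx21 did not pass. Eomes was at 45.1, 47.1 and 43.7 in the Ahr-KO libraries, against 134, 74.7 and 115 in the WT libraries, so the Ahr-KO libraries lay within a narrow range below every WT library. The log2 fold change was -1.19 ± 0.25 (adjusted p = 0.026), and the call was lost without any 1 of the Ahr-KO libraries or WT library 0 (highest adjusted p = 0.097) and after quantile normalisation (0.061). Tbx21 was at 174, 189 and 179 in the Ahr-KO libraries, against 447, 255 and 242 in the WT libraries, and its log2 difference was -0.74 ± 0.24 (95% interval -1.28 to -0.20, adjusted p = 0.086). It did not overlap either, and WT library 0 was well above the other WT libraries. The difference between both factors was not tested. Ifng, the cytokine that NK and T cells release, was barely read, with 0 in each Ahr-KO library and 3, 1.64 and 1.40 in WT, which is at most 3 estimated reads (adjusted p = 0.1). It passed with no filter, without the trend and with limma-voom, and its level is too low to give a fold.

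**Figure D3:**
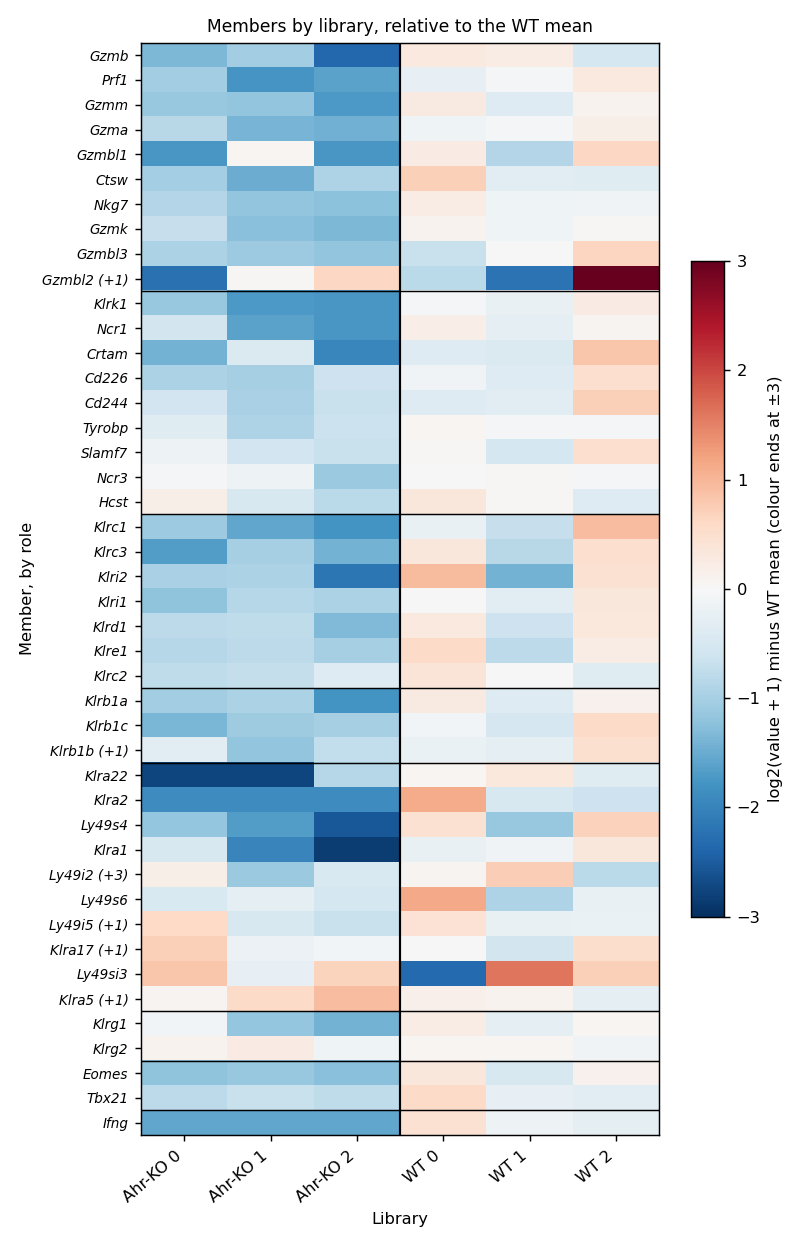
Log2(value + 1) of each of the 44 tested members in each of the 6 libraries, minus the mean of the 3 WT libraries, with members grouped by role and Ahr-KO left of WT; colours end at a difference of 3 in either direction, and a number in brackets counts further genes in a row. The 12 members that fell are blue (below the WT mean) in all 3 Ahr-KO libraries, while Gzmbl2, Hcst, the lower Ly49 rows and Klrg2 are mixed.

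The libraries of a group were not alike. Among the 12 members that fell, Ahr-KO library 0 held the highest value of its group for 8 and library 2 the lowest for 9. In WT, library 0 was highest for 8 and library 1 lowest for 9. Relative to their own group's mean, the median log2 value of these members was 0.26 in Ahr-KO library 0, -0.12 in library 1 and -0.22 in library 2. In WT it was 0.15, -0.18 and 0.11. C1qa followed the same order in Ahr-KO, at 645, 433 and 390, but not in WT, at 1849.3, 1651.5 and 1898.3. C1qb, C1qc and Itgax also fell from library 0 to library 2 in Ahr-KO. Csf1r and Cd8a ran the other way there, at 5505.4, 5590.0 and 6089.6 and at 147, 160 and 177, and Cd68 was lowest in library 1. The order was thus not shared by all genes of the companion lists, and its source was not tested.

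Of 13 tested adaptors and kinases downstream of the receptors, 8 fell and 0 rose, with a median log2 of -0.82. For this list and those that follow, the share over all genes tested was 6.26% lower and 4.5% higher. Plcg2, Sh2d1a, Ptpn6, Sh2d1b and Lat did not pass (adjusted p from 0.058 to 0.27). Cd247, the zeta chain that NKp46 signals through, stood at 129, 95.9 and 66.8 in the Ahr-KO libraries, against 241, 207 and 218 in the WT libraries (2.35-fold lower, adjusted p = 0.02). Fcer1g, the gamma chain that NKp46 and Fc receptors use, was 1.68-fold lower and the kinase Syk 1.76-fold (adjusted p = 0.03 and 0.026). Cd247, Fcer1g and Syk are also T cell or myeloid genes. That count was 0 when Ahr-KO library 1 or 2 was left out, 1 and 2 when WT library 0 or 1 was, and 2 when the trend was dropped.

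Of 12 tested genes for cytokine receptors and their pathways, 7 fell and 0 rose (median log2 -0.84). Il2rb, the beta chain shared by the IL-2 and IL-15 receptors, stood at 579, 364 and 379 in the Ahr-KO libraries, against 1176.6, 992 and 1107.9 in the WT libraries (2.53-fold lower, adjusted p = 0.0072), without overlap. Il2rg, the common gamma chain, was 1.57-fold lower, Stat4, which carries the IL-12 signal, 2.12-fold and Il21r 2.44-fold (adjusted p = 0.0079, 0.013 and 0.015). The chain specific to IL-15, Il15ra, did not pass, at 65.3, 62 and 50.5 in the Ahr-KO libraries, against 50, 47.6 and 50.4 in the WT libraries (log2 0.25 ± 0.21, adjusted p = 0.49). Its lowest Ahr-KO value, 50.5, and its highest WT value, 50.4, were closer than the value of 1 read. Of all genes tested, 17% had every Ahr-KO value above every WT value. Il18r1 and Il12rb2 had log2 differences of 0.09 ± 0.23 and -0.08 ± 0.27 with overlapping groups. Il2rb and Il2rg held their calls in each fit without 1 library. Leaving out Ahr-KO library 1, Ahr-KO library 2 or WT library 0 gave counts of 3, 2 and 4, and dropping the trend gave 4. Of the 4 cytokines tested, Il18 fell 1.75-fold (adjusted p = 0.046; 5 of the 6 fits without 1 library lost it, all but that without Ahr-KO library 0). Il15, the main survival factor of NK cells, was at 133, 173 and 145 in the Ahr-KO libraries, against 152, 112 and 112 in the WT libraries (log2 0.27 ± 0.20, adjusted p = 0.42), with overlapping groups.

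Other transcription factors and the release machinery gave mixed results. Of 12 further factors of NK and cytotoxic cells, 4 fell and 0 rose (median log2 -0.30). Runx3, which acts in CD8 T cells and NK cells, stood at 23.4, 16.5 and 20.5 in the Ahr-KO libraries, against 87, 62.4 and 64.3 in the WT libraries (3.41-fold lower, adjusted p = 0.0092), and Zfp683, which encodes the tissue-residency factor HOBIT, was 3.02-fold lower (adjusted p = 0.018). Irf8 and Ikzf3 were 2.22-fold and 3.56-fold lower (adjusted p = 0.014 and 0.031). Runx3 and Irf8 held in each fit without 1 library, and the count was 2 without Ahr-KO library 1 or 2 or WT library 0. Of 12 genes of granule release, Coro1a, an actin regulator of leukocytes, fell 2.27-fold (adjusted p = 0.0071). Unc13d, which primes granules for fusion, and Stx11, which docks them, rose 2.13-fold and 1.57-fold (adjusted p = 0.021 and 0.022). Unc13d stood at 4415.8, 5911.5 and 5807.2 in the Ahr-KO libraries, against 2640.1, 3308.8 and 1790.5 in the WT libraries, with no overlap between groups. Unc13d lost its call without Ahr-KO library 1 or 2 or WT library 0, and Stx11 without Ahr-KO library 1 or 2 or WT library 1 (highest adjusted p = 0.097 and 0.086). Both genes are not limited to lymphocytes, and which cells they were read from was not tested.

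Chemokines and homing receptors of NK cells were in part lower. Of 14 tested, 5 fell and 0 rose (median log2 -0.95). The chemokine Ccl5 stood at 876, 690 and 585 in the Ahr-KO libraries, against 1712.4, 1286.1 and 1254.8 in the WT libraries (1.98-fold lower, adjusted p = 0.015), and Cx3cr1, the fractalkine receptor of mature NK cells and monocytes, at 65.3, 38.8 and 27.3 in the Ahr-KO libraries, against 200, 106 and 152 in the WT libraries (3.53-fold lower, adjusted p = 0.02). Ccl3 was 1.84-fold lower, Cxcr6 1.93-fold and Ccl4 2.43-fold (adjusted p = 0.026, 0.042 and 0.048). The count was 0 without Ahr-KO library 1 or 2 and 1 without WT library 0, and 3 after quantile normalisation, with no filter or without the trend. On the target cell side, 2 of 13 tested ligand and partner genes fell and 1 rose (median log2 -0.12). Clec2l, a C-type lectin-like gene of the Clec2 family, fell 1.95-fold (adjusted p = 0.0079, held in each fit without 1 library). The cadherin gene Cdh2 was 2.11-fold lower and lost its call without Ahr-KO library 1 or 2 or WT library 1 (highest adjusted p = 0.077). Cadm1, an adhesion gene whose product binds Crtam, was 1.4-fold higher and held its call without WT library 2 alone (highest adjusted p = 0.15). Its call was also lost with equal library totals and with limma-voom (adjusted p = 0.078 each), after quantile normalisation (0.066) and without the trend (0.11), among others. Of death ligands and receptors, 0 of 6 passed by limma (1 at an unadjusted p under 0.05, where 27.9% of all genes tested were). Faslg, the ligand of Fas, was at 35.5, 33.9 and 25.9 in the Ahr-KO libraries, against 93, 42.7 and 78.3 in the WT libraries (adjusted p = 0.075). Faslg passed as lower without WT library 1, and Tnfsf10, which encodes TRAIL, as higher without WT library 2.

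Markers of other lymphocytes were in part lower in the same libraries. Of 16 T cell markers, 11 fell and 0 rose (median log2 -1.24), and of 10 B cell markers, 7 fell and 0 rose (median log2 -1.24), beside the median of -1.09 over the 44 members. The summed value of the T cell list was 2067.8 to 2122.9 in Ahr-KO and 3083.8 to 4085.6 in WT, and that of the B cell list 758 to 1019.5 in Ahr-KO and 1699.6 to 2500.1 in WT. Tcf7, which did not pass, held the highest value of the T cell list in every library and so weighs most in its sum. Cd3e, a chain of the T cell receptor complex that NK cells lack on their surface, stood at 46.7, 37.2 and 30 in the Ahr-KO libraries, against 107, 95.3 and 76.9 in the WT libraries, and Cd8a at 147, 160 and 177 in the Ahr-KO libraries, against 486, 330 and 431 in the WT libraries. The T cell factor gene Tcf7 was at 762, 964 and 917 in the Ahr-KO libraries, against 985, 754 and 904 in the WT libraries (log2 0.00 ± 0.14), and Ubash3a and the B cell factor gene Pax5 had log2 differences of -0.32 ± 0.36 and -0.31 ± 0.57. All 3 overlapped between groups and did not pass. The T cell count was 3 without Ahr-KO library 1 or 2 and 4 without WT library 0. The B cell count was 4, 3, 4 and 4 without Ahr-KO library 1, Ahr-KO library 2, WT library 0 and WT library 1. Whether T cells, NK cells or both account for the granule genes was not tested.

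Lists of cells outside the lymphocytes gave mixed counts. Of 11 tested macrophage and monocyte markers, 4 fell and 0 rose (median log2 -0.85). Their summed value was 10812.3 to 17460.0 in Ahr-KO and 17589.4 to 20942.4 in WT. Csf1r and Mrc1, which did not pass, held the highest values of this list in every library and so weigh most in that sum. Of 8 neutrophil markers, 0 passed by limma, and 1 passed with equal library totals. At an unadjusted p under 0.05, 1 of the 8 was counted, where 27.9% of all genes tested were. Among 10 mast cell and basophil markers, 3 fell and 1 rose. That which rose was Kit, which other lung cells also make (3.14-fold higher, adjusted p = 0.0034), while Fcer1a, Ms4a2 and Cpa3 fell 5.7-fold, 4.0-fold and 5.15-fold (adjusted p = 0.015, 0.038 and 0.04). Of these 4 calls, 2 were made when Ahr-KO library 1 or 2 was left out, 1 when WT library 0 was, and 2 after quantile normalisation or with the trend dropped. Epithelial markers had 1 of 7 lower and 1 higher (median log2 0.34), and endothelial markers 2 of 6 higher (median log2 0.27). All Ahr-KO values lay above all WT values for 5 of 7 epithelial and 4 of 6 endothelial markers, against 17% of all genes tested, and their part in the lower lymphocyte values was not tested. Fits without 1 library called 0 or 1 of each of these lists. Both endothelial calls, Ace and Pecam1, were also lost with equal library totals (adjusted p = 0.073 and 0.069) and limma-voom (0.058 and 0.068). They were lost as well after quantile normalisation, with no filter, without the trend and with the library number as a block. The epithelial gene that was higher, Ager, was lost after quantile normalisation (0.064) and without the trend (0.058). The medians and counts of all lists are set side by side in the plot of companion lists, and differences between lists were not tested.

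**Figure D4:**
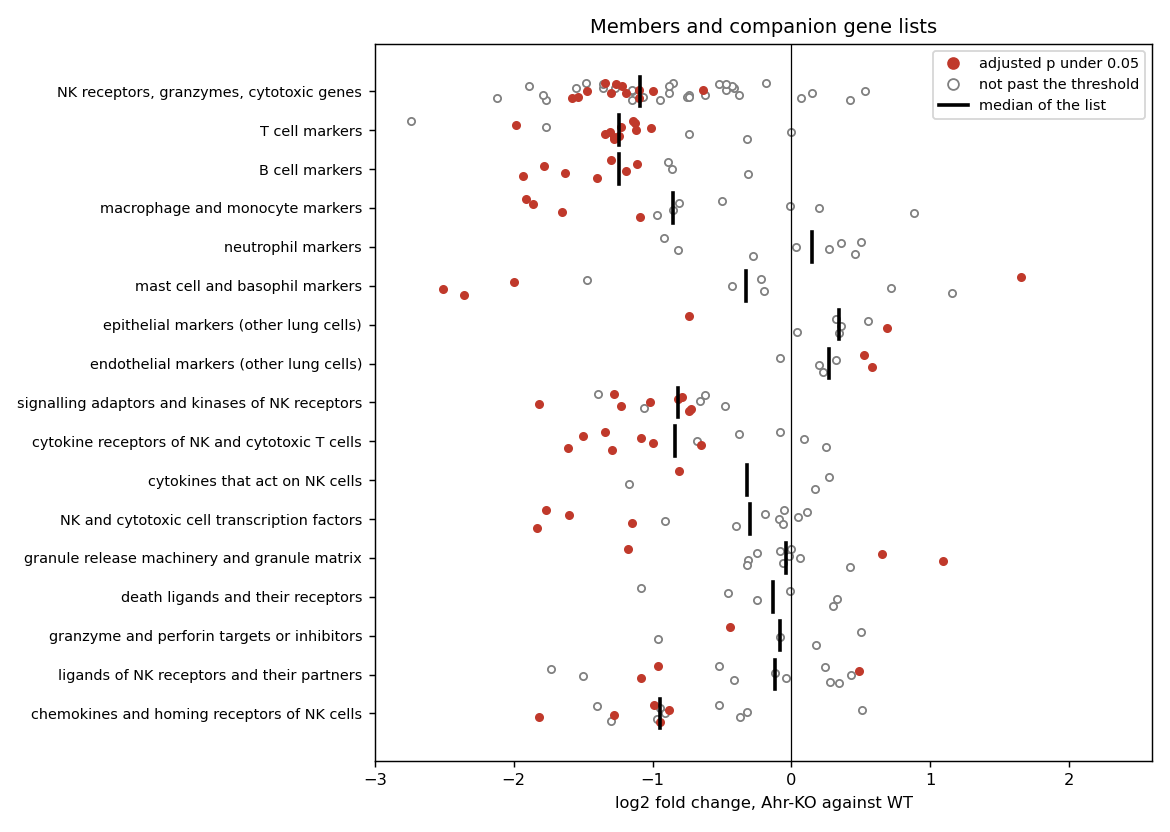
Log2 fold change of Ahr-KO against WT for each tested gene of the NK and cytotoxic set (top) and of 16 companion lists, with red points past an adjusted p of 0.05, open points not past it, and a black bar at the list's median. The bars of the NK and cytotoxic, T cell and B cell rows stand at -1.09, -1.24 and -1.24, and those of the neutrophil, epithelial and endothelial rows at 0.15, 0.34 and 0.27.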

How the data were processed

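Bulk RNA-seq of total lung was analysed from 3 Ahr-KO and 3 WT libraries, all SuHx, day 56. Per the submitters' processing notes, FastQC was run and the build was rn6. The sources used here do not name the aligner, counter, annotation or strandedness. A single table of normalised signal was deposited by the authors, 1 value per gene symbol and library; of the values above 0, 97.4% to 98.0% lay within 0.05 of a whole multiple of 1 step per library, from which reads were estimated. As the rest were fractions, no count test was used. The table's columns number libraries from 0 and the titles from 1, so columns were assigned to groups only and the numbers are names. Correlations of deviations between same-numbered libraries were -0.10, 0.07 and -0.07, and those between differently numbered libraries ran from -0.05 to 0.12. They showed no pairing by number. With 3 libraries a group they cannot exclude a pairing or a shared batch, and the libraries numbered 2 were the shallowest of both groups. Nothing in the labels states separate animals per sample, so the spread behind the p-values may be technical and p-values measure no more than that spread. Libraries of a group differed well beyond sampling noise (chi-square per gene 15.9 to 33.7). There were 0 unused value columns, and 229 rows name several genes.

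Values were transformed to log2(value + 1); genes at 1 or more in at least 3 libraries were fitted with limma 3.58.1 in R 4.3.3 (trend, genotype as the single term, 2-sided, adjusted over 15386 genes, threshold 0.05). With 3 against 3, an exact permutation test cannot go below 0.1 and was not used. Code was tested on simulated data. The members, the lists and the rule for named genes (all members; values by library for those past the threshold and for defining genes; up to 4 genes with the lowest p per companion list) were chosen with earlier results of these data known. Alternatives were quantile normalisation, equal totals, no or a stricter filter (10), a pseudocount of 0.1, limma without trend, robust limma, limma-voom on estimated reads, a block for library number, leaving out each library, and leaving out both libraries numbered 2. A few genes of the companion lists are not reported here. Companion genes named beyond the rule, such as those that did not pass, were chosen after their values were seen.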

Additional observations from a re-analysis of the deposited data

How the results depend on the processing

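The count of 12 members past the threshold ranged from 8 to 13 under other scalings, filters, pseudocounts and variance models, from 3 to 10 when 1 library was left out, and was 2 without both libraries numbered 2. In each of these 16 alternatives every called member was lower. With the library number as a replicate block, 9 members were called, 43 companion genes and 899 of all genes. Eomes, Klrb1a and Klri1 lost their calls there (limma adjusted p = 0.058, 0.056 and 0.086). Whether the numbers pair the samples is not known, so what these losses mean cannot be told. The 61 companion genes past the threshold became 34 without the trend, 9 without both libraries numbered 2, and 17 to 61 when 1 library was left out; 16 of the 61 passed in all 6 of those fits. The 1655 genes called over the table (692 higher, 963 lower) became 952 without the trend, 553 without both libraries numbered 2, and 407 to 1834 when 1 library was left out. Equal library totals gave 449 higher and 1314 lower and limma-voom 436 and 1290, and under each the median log2 fold change of all genes was -0.08 in place of 0.01.

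No member past the threshold changed sign under an alternative. Among members that did not pass, log2 fold changes turned sign as follows. The row of Gzmbl2 ran over -1.63 to 0.98 when 1 library was left out and was 0.41 without both libraries numbered 2, above 0 when Ahr-KO library 0 (0.33) or WT library 2 was the one left out. That of Klra17 ran over -0.13 to 0.41, below 0 for Ahr-KO library 0 and WT library 1 (-0.12). Klrg2 ran over -0.01 to 0.17, below 0 for Ahr-KO library 1, and was -0.02 with equal totals and -0.01 with limma-voom. The row of Ly49i5 ran over -0.57 to 0.07, above 0 for Ahr-KO library 2 and WT library 0 (0.03), and was 0.05 after quantile normalisation. Ly49s6 ran over -0.87 to 0.16 and Ly49si3 over -0.74 to 1.23, both turning for WT library 0. The cause was not tested. Depth limits the 10 tested members with a mean value under 10; Gzmbl1, Ifng and Klra2 entered only 3 of the fits that leave out 1 library.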

Other observations

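A list of 12 inhibitory and activation receptors of lymphocytes outside the rule was written after the data were seen, so its counts are a description and support nothing. Of its 11 tested genes 7 were lower and 0 higher, or 6 of 10 without Tigit, and Ctla4, Cd160, Btla and Lair1 did not pass (adjusted p = 0.43, 0.96, 0.09 and 0.6). Havcr2, which encodes TIM-3, stood at 26.6, 14.9 and 24.6 in the Ahr-KO libraries, against 143, 118 and 150 in the WT libraries, a log2 fold change of -2.62 ± 0.27 (limma adjusted p = 0.0036). Cd96, a receptor that shares ligands with Cd226, stood at 31.4, 36.4 and 28.6 in the Ahr-KO libraries, against 89, 94.4 and 129 in the WT libraries (3.14-fold lower, adjusted p = 0.0081). Neither gene overlapped between groups, and both calls held in each fit without 1 library. Myeloid cells also make Havcr2, and their part was not tested. The early activation marker Cd69 was 3.08-fold lower, the Fc receptor gene Fcgr3a 2.09-fold and the IL-2 receptor chain Il2ra 2.43-fold (adjusted p = 0.014, 0.017 and 0.02). Cd69 and Fcgr3a lost their calls without Ahr-KO library 1 or 2, and Il2ra without these or WT library 0 or 1. Lag3 (1.95-fold lower, adjusted p = 0.048) held without WT library 2 alone. Tigit was at 0.806, 0 and 0 in the Ahr-KO libraries, against 8, 3.28 and 8.39 in the WT libraries, and it passed the filter through the WT libraries alone and so had to be lower (adjusted p = 0.027; it entered 3 fits without 1 library and was lost in those without Ahr-KO library 1 or 2). Cd160, a receptor of cytotoxic cells, stood at 10.5, 7.44 and 10.9 in the Ahr-KO libraries, against 5, 10.7 and 14 in the WT libraries, with overlapping groups (adjusted p = 0.96). Pdcd1 was listed at 0 in all 6 libraries.

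A further row of the table names LOC497796 and Ly49i9 and is not among the members because its symbol begins with LOC. It stood at 25, 7.44 and 2.73 in the Ahr-KO libraries, against 19, 25.5 and 28 in the WT libraries, where Ahr-KO library 0 lay among the WT values (log2 -1.41 ± 0.65, adjusted p = 0.2).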
